A study of Homo sapiens with 45 samples.

Results

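The genes of control HCT116 cells were sorted by the chromatin that holds their bodies, and their messenger RNA was compared between those classes without any knockdown. A gene was put in a class where 50% or more of the gene body fell within the control domain list of lamin B1 (LMNB1), H3K9me2, H3K9me3 or H3K27me3, and a gene under 50% in each of the 4 lists was called unmarked. Of 28278 gene names in the count table, 27572 had a position in the RefSeq annotation of GRCh38, and 19175 of these are protein-coding. The classes held 3578 (LMNB1), 2485 (H3K9me2), 2590 (H3K9me3) and 6276 (H3K27me3) genes, which overlap and together make 8634 genes, beside 18938 unmarked genes.

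HCT116 is an established human colon cancer cell line. The RNA group is siNTC5, 4 libraries of cells given 25 nM of a nontargeting siRNA for 72 h, 2 made with a TruSeq kit and 2 with a Ligation kit, both selecting polyadenylated RNA. The control domain lists come from cells with control siRNA, also 25 nM for 72 h. They rest on 3 libraries each for LMNB1, H3K9me2 and H3K9me3 and 2 for H3K27me3, with 1 list per antibody, so that class membership has no replicate. The comparison uses 15 of the 45 samples of the series, all from 1 line, and the labels do not say that libraries came from separate cultures, so each SD and p below measures only the spread between these libraries. A further pair of control libraries, Scramble, also at 25 nM for 72 h and both made with a TruSeq kit, served as a second look at the same genes.

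Total counts ran from 14810376 to 23633851 per siNTC5 library. Levels are CPM, counts scaled so that each library has the same total, which is not corrected for transcript length. A count of 0 allows up to 0.127 to 0.203 CPM in a single library (3 counts), and 0.041 CPM over the 4 libraries together, for counting error only. Genes under 0.1 CPM in the mean were called silent, those from 0.1 to under 1 low, those from 1 to under 10 intermediate, and those of 10 or more high, while a gene counted as expressed at 1 CPM or more in the library or, where genes rather than shares per library are counted, in 4 of 4 libraries. Of 9 markers of colon and other simple epithelium, 6 were expressed in each library, among them EPCAM at 252 ± 2.74 CPM and KRT8 at 1174 ± 75.3 CPM (SD, n = 4), while VIL1, LGALS4 and CDH17 stayed under 1 CPM in the mean. Markers of hepatocytes, leukocytes and endothelium were expressed in 0 of 4 each, those of neurons, muscle and melanocytes in 2 of 4 each and those of fibroblasts in 1 of 4. SYT1, a neuronal marker, stood at 108 ± 15.6 CPM, COL1A1, a fibroblast collagen, at 61.0 ± 14.2 CPM while DCN, LUM and COL1A2 had no count, and TTN, a muscle gene, at 23.4 ± 2.43 CPM inside a domain of LMNB1 and H3K27me3. In bulk RNA of this kind, fewer cells with a transcript and less of it per cell cannot be told apart.

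Lamin B1 is part of the nuclear lamina, the protein mesh under the inner nuclear membrane, and the chromatin that touches it forms long lamina-associated domains. H3K9me2 and H3K9me3, methyl marks on lysine 9 of histone H3, are known for constitutive heterochromatin, and H3K9me3 also covers clusters of zinc finger genes and their repeats. H3K27me3, laid down by the Polycomb repressive complex PRC2, is known for holding developmental genes silent. All 4 are classed as repressive, but a gene within such a domain can still be transcribed, and such genes are often said to escape.

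Most genes inside each of the 4 lists were silent, and most genes outside them were not. By mean CPM, 83.4% of LMNB1 genes, 89.7% of H3K9me2 genes, 79.8% of H3K9me3 genes and 68.4% of H3K27me3 genes were silent, against 27.5% of unmarked genes and 41.0% of all positioned genes. Expression at 1 CPM or more in 4 of 4 libraries was seen for 306 LMNB1 genes (8.55%), 113 H3K9me2 genes (4.55%), 349 H3K9me3 genes (13.5%) and 995 H3K27me3 genes (15.9%), against 10999 unmarked genes (58.1%) and a background of 44.9% over all positioned genes. High genes made up 3.8% of LMNB1, 1.73% of H3K9me2, 7.18% of H3K9me3 and 8.27% of H3K27me3 genes, against 46.6% of unmarked genes and 34.7% of all. The order was therefore the same for silent and expressed genes, with H3K9me2 the most silent and H3K27me3 the least. All genes inside any list together gave 4.24% ± 0.0238 of the counts (SD, n = 4).

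The protein-coding genes, which the polyadenylated libraries measure best, kept that order at higher shares. The expressed share of LMNB1 protein-coding genes was 15.6%, 15.8%, 16.2% and 16.0% in replicates 1 to 4. H3K9me2 genes gave 9.49%, 9.57%, 10.1% and 9.57%, and H3K9me3 genes 23.3%, 23.3%, 23.7% and 23.6%. H3K27me3 genes gave 25.0%, 24.7%, 26.1% and 26.0%. Unmarked genes gave 74.7%, 74.5%, 75.2% and 75%, so the lowest unmarked value lay far above the highest value of any list. In 4 of 4 libraries at once, 278 of 1877 LMNB1, 108 of 1233 H3K9me2, 300 of 1341 H3K9me3 and 898 of 3878 H3K27me3 protein-coding genes were expressed, against 10344 of 14075 unmarked genes and 60.4% of all protein-coding genes. For silent and high genes the same background is 27.4% and 48.9%.

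The difference in expressed share from unmarked genes, taken within each library over all positioned genes, was -50.5 percentage points ± 0.118 for LMNB1, -54.7 ± 0.139 for H3K9me2, -45.4 ± 0.0978 for H3K9me3 and -42.1 ± 0.225 for H3K27me3 (SD, n = 4). Each was lower in 4 of 4 libraries. For these differences a gene was silent where it lay under 0.1 CPM in the single library, not in the mean. That limit lies below the 0.127 to 0.203 CPM that a count of 0 allows in a library, so it depends on depth. The silent share so taken differed by 55.6 ± 0.288, 61.8 ± 0.393, 52.0 ± 0.269 and 40.3 ± 0.156 points in the same order of lists. With genes of no count left out, the silent share differed by 27.2, 35.5, 19.1 and 22.1 points, and the H3K9me3 difference in expressed share was -24.0. The two-sided exact sign-flip permutation test over the 4 libraries gave p = 0.125 for each, which is the smallest value that 4 libraries allow, and this design cannot reach 0.05. Over the 38 class comparisons made, the Benjamini-Hochberg adjusted p from the same exact test was 0.125 throughout. Each difference was far larger than its SD between libraries, but the libraries share 1 set of domains, and the SD holds no error of the domain calls. Without chromosome 19, an alternative chosen after the data were seen, the 113 expressed H3K9me2 genes became 38 and the 349 expressed H3K9me3 genes 228, and without numbered zinc finger genes 42 and 190. Leaving out genes that overlap another gene took the 995 expressed H3K27me3 genes to 645.

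**Figure D1:**
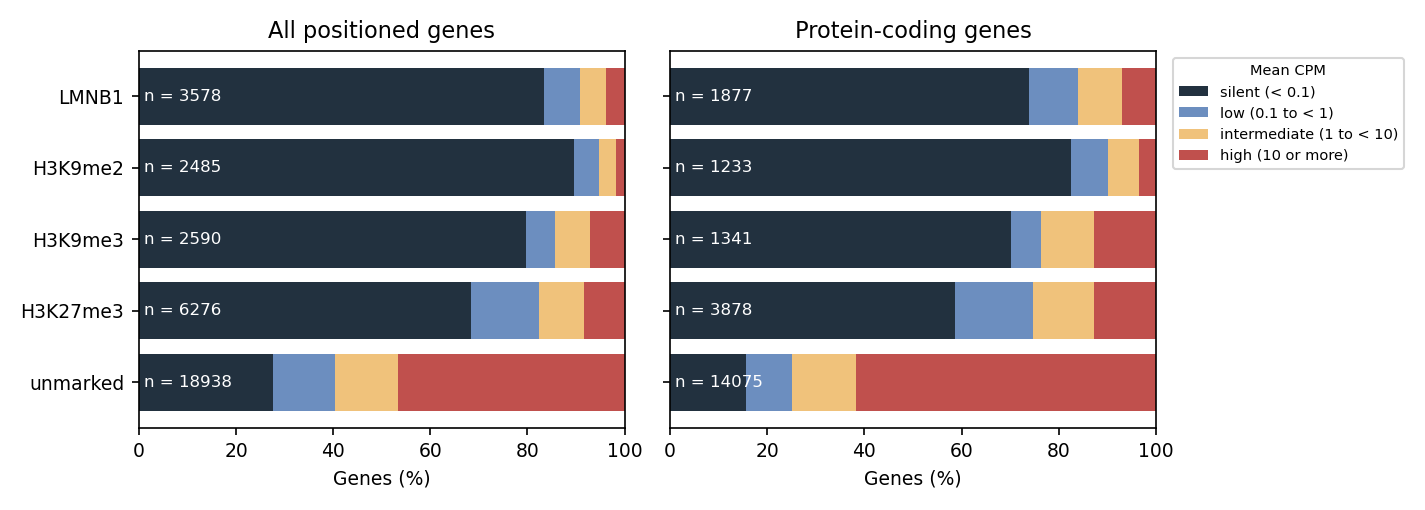
Percent of genes in each class (x axis) that were silent, low, intermediate or high by mean CPM over the 4 siNTC5 libraries, for all positioned genes (left) and protein-coding genes (right), with n as the number of genes. The dark silent part covers 89.7% of all H3K9me2 genes and 27.5% of all unmarked genes.

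Among the expressed genes, those inside domains also stood at lower levels. The median of the expressed genes was 8.28 CPM for LMNB1, 6.85 for H3K9me2, 11.5 for H3K9me3 and 10.9 for H3K27me3, against 38.8 for unmarked genes. Silent genes inside domains were mostly without any count: 86.6% of silent LMNB1 genes, 88.9% of silent H3K9me2 genes and 88.1% of silent H3K9me3 genes had 0 counts over the 4 libraries. That share was 74.3% for silent H3K27me3 genes and 62.2% for silent unmarked genes. RNA too short for these libraries takes part in the shares over all genes, since 2454 positioned names are microRNA or small nucleolar RNA genes, of which 88 were expressed.

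The 4 lists overlap, and the classes differed most when each gene was placed by its exact combination of lists. Protein-coding genes in LMNB1 domains with no histone mark were expressed in 59.3% ± 0.448 (n = 129 genes; SD over 4 libraries), and those with H3K9me3 alone in 51.1% ± 0.364 (n = 346). H3K27me3 alone held 2711 protein-coding genes, of which 31.1% ± 0.880 were expressed. Within LMNB1 domains the share was lower with each set of histone marks, at 42.1% ± 1.22 with H3K9me3 (n = 41), 17.9% ± 0.497 with H3K27me3 (n = 520), 12.4% ± 0.185 with H3K9me2 and H3K9me3 (n = 696), 5.37% ± 0.477 with all 3 marks (n = 121) and 4.75% ± 0.812 with H3K9me2 and H3K27me3 (n = 326). The last 2 do not differ beyond their spread, with 4.96% to 5.79% and 3.99% to 5.83% over libraries. H3K9me2 held 1 protein-coding gene that lay in no other list.

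Protein-coding LMNB1 genes with H3K27me3 differed in expressed share from LMNB1 genes without a histone mark by -41.4 percentage points ± 0.222 (SD, n = 4), lower in 4 of 4 libraries. H3K9me3 alone exceeded H3K27me3 alone by 20.0 ± 0.783 points in 4 of 4. LMNB1 with H3K27me3 exceeded LMNB1 with H3K9me2 and H3K9me3 by 5.46 ± 0.413 points for protein-coding and by 5.77 ± 0.198 for all genes, each in 4 of 4. The two-sided exact sign-flip test gave p = 0.125 for each, again the smallest possible. The last of these turned to -10.2 points when genes with no count in any library were left out, because 84.5% of the 1508 genes in LMNB1 with H3K9me2 and H3K9me3 had no count at all, against 59.3% of the 883 genes in LMNB1 with H3K27me3. It was 1.77 points where 90% of the body had to lie in a list and 2.47 points without genes that overlap another gene.

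Low genes set the lists apart in another way. Of protein-coding genes that were not silent, 73.8% were low in LMNB1 with H3K9me2 and H3K27me3, 45.0% in LMNB1 with H3K27me3 and 36% in H3K27me3 alone. The share was 26.3% in LMNB1 with H3K9me2 and H3K9me3, 14.9% in H3K9me3 alone and 11.3% in unmarked genes. It was 18.5% in H3K9me3 with H3K27me3, over 27 genes that were not silent. These are counts over genes of the same 4 libraries and carry no test.

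**Figure D2:**
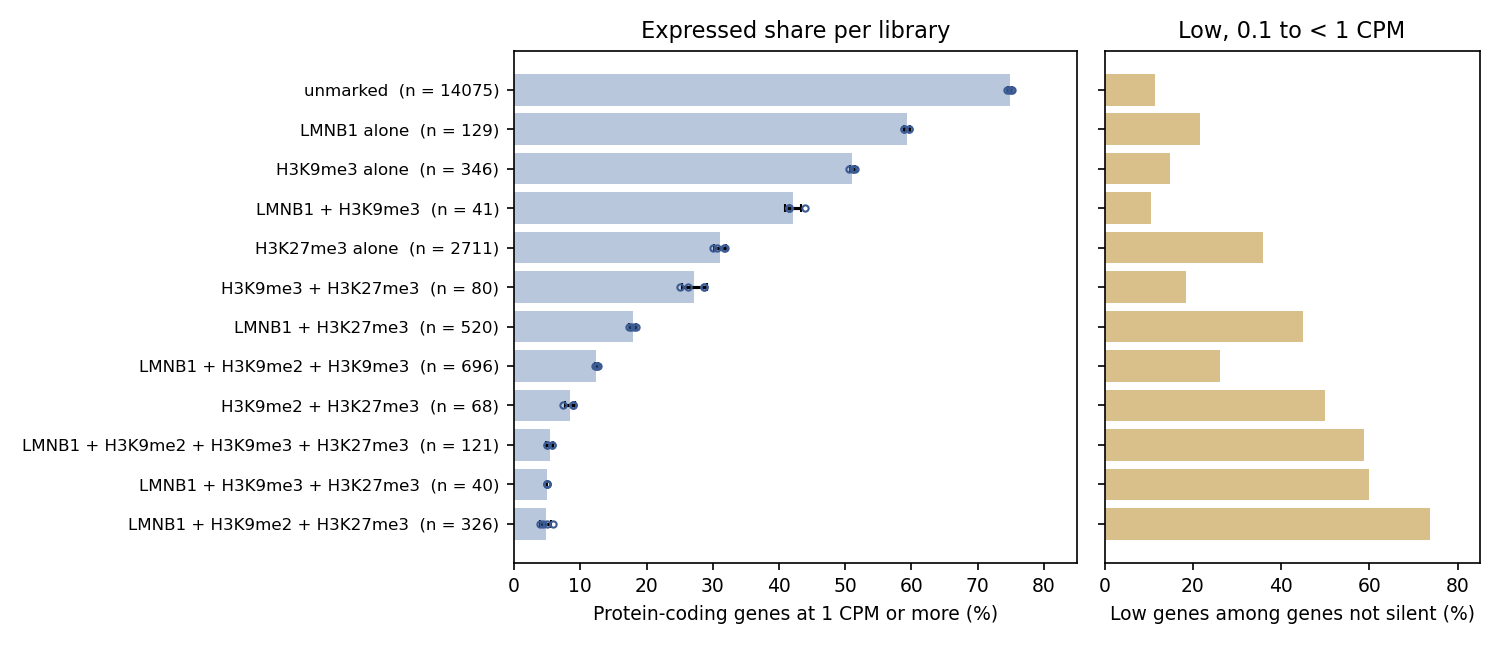
Left: percent of protein-coding genes at 1 CPM or more (x axis) for each exclusive combination of lists with at least 40 genes; bars are means, whiskers the SD and open points the 4 libraries. Right: percent of the genes not silent that were low; shares run from 10.5% of LMNB1 + H3K9me3 genes to 73.8% of LMNB1 + H3K9me2 + H3K27me3 genes.

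Genes with more of their body in a domain were less often expressed, apart from genes barely touched by H3K27me3. For LMNB1 the share of protein-coding genes at 1 CPM or more was 67.1% ± 0.416 with 0% of the body covered, 52.9% ± 1.17 at 25 to under 50%, 42.7% ± 0.679 at 50 to under 75% and 11.9% ± 0.171 at 100% (SD, n = 4). H3K9me2 went from 65.8% ± 0.412 to 8.45% ± 0.200 between the same ends, H3K9me3 from 65.0% ± 0.419 to 21.8% ± 0.320 and H3K27me3 from 70.9% ± 0.320 to 21.6% ± 0.652. Genes with above 0 and under 25% of their body in an H3K27me3 domain were expressed more often than those with none, in 81.9% ± 0.411 of 540 genes. Just inside the 50% limit, the nearest expressed protein-coding genes were UHRF1BP1L for LMNB1 (50.0% covered, 42.6 CPM), SUMF1 for H3K9me2 (51.0%, 20.9 CPM), GPR39 for H3K9me3 (50.0%, 3.21 CPM) and IGSF9B for H3K27me3 (50.4%, 16.4 CPM). Just outside stood TASP1 (49.7%, 14.1 CPM), N6AMT1 (49.8%, 10.4 CPM), PIGK (49.4%, 32.1 CPM) and NHEJ1 (49.9%, 24.7 CPM).

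Distance from the domain edge went with expression most in H3K9me3. Among protein-coding genes wholly inside an H3K9me3 domain, 36.7% ± 0.542 were expressed within 50 kb of an edge, 27.9% ± 0.956 at 50 to under 200 kb, 13.8% ± 0.167 at 200 to under 500 kb and 8.49% at 500 kb or more, the last the same in each library. Without chromosome 19 the H3K9me3 values were 32.7%, 20.2%, 2.61% and 3.70%. LMNB1 genes went from 17.4% ± 0.495 to 9.08% ± 0.166 over the same distances (12.7% to 7.59% without chromosome 19), and H3K27me3 genes from 23.6% ± 0.824 to 17.4% ± 0.409. H3K9me2 genes outside chromosome 19 stayed between 1.69% and 2.83% at each distance. Of 464 LMNB1 domains with a whole protein-coding gene inside, 96 held an expressed one, and 64 of those 96 also held a silent one. The same counts were 26 of 287 for H3K9me2, 96 of 317 for H3K9me3 and 443 of 1063 for H3K27me3.

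**Figure D3:**
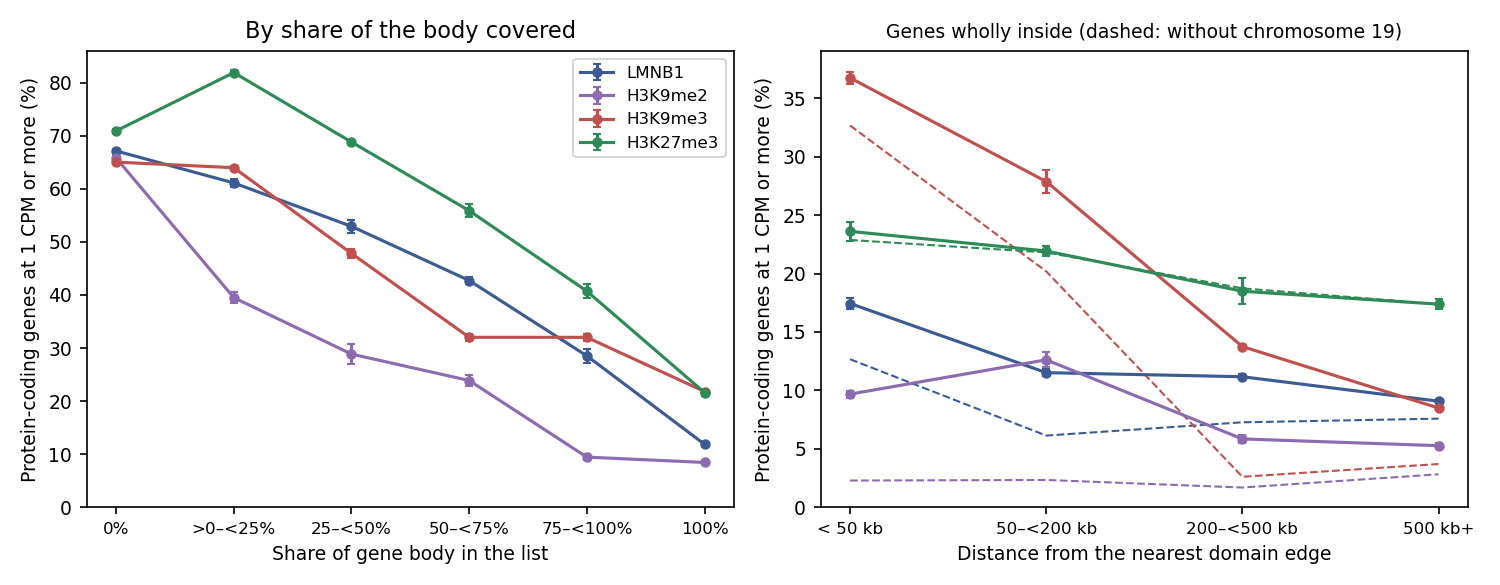
Percent of protein-coding genes at 1 CPM or more (y axes, from 0) by share of the gene body in each list (left) and, for genes wholly inside a domain, by distance from its nearest edge (right); points are means and whiskers the SD over 4 libraries. The dashed lines leave out chromosome 19, where the H3K9me2 line then stays at or under 2.83%.

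Lamin B1 domains that hold 2 whole protein-coding genes, 1 expressed and 1 silent, show the contrast at single loci. UQCRFS1 and ZWINT are the highest 2 expressed protein-coding genes that lie, start included, wholly inside both an LMNB1 and an H3K9me2 domain that also holds a silent one, among genes with a listed promoter, and WDR72 is the highest of those wholly inside all 4 lists. Each is set beside the nearest silent protein-coding gene of its LMNB1 domain, which in each case holds no other whole protein-coding gene. Below are 250 bases before and 50 bases from each RefSeq start on GRCh38.p14, 5′ to 3′ on the strand of the gene, with each CpG dinucleotide in capitals. They are shown because CpG content is the promoter feature that the next values turn on.
UQCRFS1: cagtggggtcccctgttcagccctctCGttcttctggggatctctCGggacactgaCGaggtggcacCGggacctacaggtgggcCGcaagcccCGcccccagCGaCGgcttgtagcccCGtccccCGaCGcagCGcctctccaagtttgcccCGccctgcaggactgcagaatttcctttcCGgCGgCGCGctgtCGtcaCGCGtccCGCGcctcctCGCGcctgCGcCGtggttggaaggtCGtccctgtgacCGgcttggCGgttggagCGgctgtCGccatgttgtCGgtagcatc
VSTM2B: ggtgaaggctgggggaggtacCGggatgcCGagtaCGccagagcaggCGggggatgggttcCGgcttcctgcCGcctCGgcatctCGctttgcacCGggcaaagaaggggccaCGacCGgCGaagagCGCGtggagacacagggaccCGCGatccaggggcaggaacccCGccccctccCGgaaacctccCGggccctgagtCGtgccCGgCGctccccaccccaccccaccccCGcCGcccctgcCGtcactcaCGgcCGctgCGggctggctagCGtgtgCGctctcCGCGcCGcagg
ZWINT: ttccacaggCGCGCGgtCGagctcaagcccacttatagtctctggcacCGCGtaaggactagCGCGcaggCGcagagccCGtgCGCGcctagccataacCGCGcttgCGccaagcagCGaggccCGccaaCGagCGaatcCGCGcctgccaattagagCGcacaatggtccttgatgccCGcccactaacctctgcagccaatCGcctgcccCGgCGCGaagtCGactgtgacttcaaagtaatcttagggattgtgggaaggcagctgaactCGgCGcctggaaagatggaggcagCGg
PCDH15: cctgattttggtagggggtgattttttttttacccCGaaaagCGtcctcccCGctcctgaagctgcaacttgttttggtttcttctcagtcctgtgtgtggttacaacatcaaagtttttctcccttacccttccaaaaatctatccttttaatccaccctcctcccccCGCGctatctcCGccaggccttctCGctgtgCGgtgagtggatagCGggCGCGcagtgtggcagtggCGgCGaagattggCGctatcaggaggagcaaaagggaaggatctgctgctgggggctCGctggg
WDR72: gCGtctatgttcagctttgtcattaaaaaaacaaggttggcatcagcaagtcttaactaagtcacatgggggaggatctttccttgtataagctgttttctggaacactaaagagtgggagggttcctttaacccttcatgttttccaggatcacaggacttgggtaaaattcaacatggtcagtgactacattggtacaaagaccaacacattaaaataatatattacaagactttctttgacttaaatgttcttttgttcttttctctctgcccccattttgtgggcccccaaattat
UNC13C: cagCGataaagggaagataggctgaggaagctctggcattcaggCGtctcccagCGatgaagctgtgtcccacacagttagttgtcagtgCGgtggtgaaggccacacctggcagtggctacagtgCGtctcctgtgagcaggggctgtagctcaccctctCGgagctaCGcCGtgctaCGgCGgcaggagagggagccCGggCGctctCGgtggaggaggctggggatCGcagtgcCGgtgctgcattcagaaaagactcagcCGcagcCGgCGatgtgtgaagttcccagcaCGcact

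UQCRFS1 encodes the Rieske iron-sulfur subunit of respiratory complex III, and its promoter (chr19:29213102-29213401, minus strand) holds 32 CpGs. It measured 127, 124, 106 and 108 CPM in replicates 1 to 4, a mean of 116 ± 10.8. VSTM2B (chr19:29525168-29525467, plus strand), whose start lies 312 kb away in the same domain of 1755 kb, has 33 CpGs and a total of 1 count in the 4 libraries. A promoter rich in CpG was thus present at both genes of this pair, 1 expressed and 1 silent. The pair is not matched in lists: UQCRFS1 lay in LMNB1, H3K9me2 and H3K27me3, and VSTM2B in LMNB1 and H3K27me3.

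ZWINT, a kinetochore protein needed for chromosome segregation, lies wholly in LMNB1, H3K9me2 and H3K9me3 domains and measured 108, 130.2, 85.8 and 88.4 CPM (103 ± 20.6). Its promoter (chr10:56361224-56361523, minus strand) holds 31 CpGs. PCDH15, a protocadherin of hair cells, has a promoter with 15 CpGs (chr10:55627893-55628192, minus strand), its start 733 kb away, and no count in any library. WDR72, a WD-repeat protein with a role in enamel formation, lies wholly inside all 4 lists and still measured 14.3, 11.6, 13.1 and 12.7 CPM (12.9 ± 1.13). Its promoter (chr15:53762829-53763128, minus strand) holds 1 CpG, while that of its silent neighbour UNC13C, a synaptic priming protein with no count (chr15:53978191-53978490, plus strand) and a start 216 kb away, holds 19. This listed start of UNC13C lies inside the annotated gene body, which begins at 53837602, so the window is not the outermost end of the gene. By gene body, PCDH15 lay in the same lists as ZWINT, while UNC13C, unlike WDR72, was not in H3K27me3.

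Across all classes, expressed genes had promoters richer in CpG than silent genes. A promoter was called CpG-rich when its observed over expected CpG ratio was 0.6 or more, as in 60.4% of the 18719 positioned genes with a listed promoter. Of expressed genes with a listed promoter, 78.2% were CpG-rich in LMNB1 (190 of 243; Wilson 95% interval 72.6 to 82.9), 78.4% in H3K9me2 (76 of 97; 69.2 to 85.4), 77.5% in H3K9me3 (214 of 276; 72.3 to 82.1) and 77.0% in H3K27me3 (586 of 761; 73.9 to 79.9). Silent genes were CpG-rich in 27.8%, 26.8%, 29.5% and 25.2% in the same order. The share for expressed unmarked genes was 84.1% and for silent unmarked genes 34.3%. The median ratio of expressed genes was 0.80 in each of the 4 lists, against 0.28 to 0.32 for silent ones. Between 59.7% and 85.8% of the genes of these groups in the lists had a listed promoter, and intervals cover only the number of genes.

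Read the other way, the domain still went with lower expression among CpG-rich genes. Of protein-coding genes with a CpG-rich promoter, 29.6% ± 0.261 were expressed in LMNB1, 19.7% ± 0.423 in H3K9me2, 40.4% ± 0.245 in H3K9me3 and 45.5% ± 0.711 in H3K27me3, against 87.6% ± 0.214 of unmarked genes (SD, n = 4). CpG-poor genes were expressed in 6.30% ± 0.305, 3.98% ± 0.206, 10.1% ± 0.242 and 11.3% ± 0.656, against 45.9% ± 0.720. CpG-rich exceeded CpG-poor genes in 4 of 4 libraries in each class, by 15.8 points ± 0.281 in H3K9me2 up to 34.2 ± 0.168 in H3K27me3 among the lists (two-sided exact sign-flip p = 0.125, the smallest possible). Numbered zinc finger genes carry part of the values in H3K9me2, H3K9me3 and LMNB1. Without them 9.30% of CpG-rich and 1.99% of CpG-poor H3K9me2 genes were expressed. The same shares were then 27.8% and 6.45% in H3K9me3, 25.5% and 4.82% in LMNB1 and 44.9% and 11.3% in H3K27me3.

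**Figure D4:**
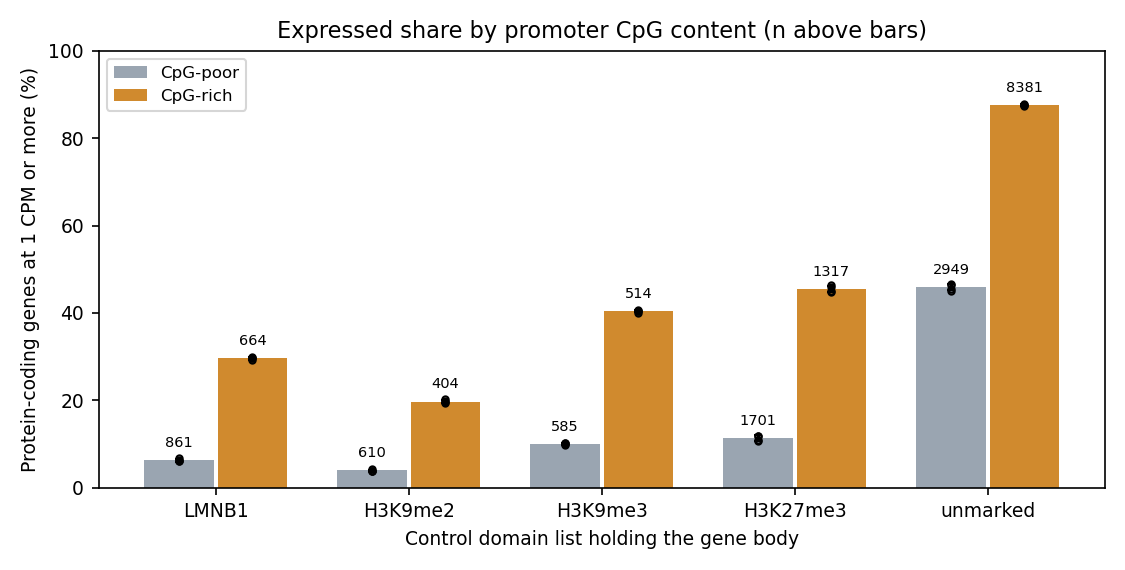
Percent of protein-coding genes at 1 CPM or more (y axis) with CpG-poor (grey) and CpG-rich (orange) promoters in each class; bars are means, whiskers the SD, points the 4 libraries and numbers the genes. CpG-rich bars stand above CpG-poor bars in each class, from 19.7% in H3K9me2 to 87.6% in unmarked genes.

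Where a gene starts relative to the domain also went with its level. Protein-coding genes with most of the body in an LMNB1 domain but their outermost listed start outside it were expressed in 51.3% ± 0.694, against 13.0% ± 0.212 of those starting inside (n = 138 and 1387 genes). For H3K27me3 these shares were 49.2% ± 0.912 and 24.7% ± 0.710, for H3K9me3 39.5% ± 1.01 and 23.1% ± 0.168, and for H3K9me2 21.2% ± 0.694 and 9.42% ± 0.251. Among CpG-rich genes alone the shares outside and inside were 62.9% ± 1.01 and 24.0% ± 0.264 for LMNB1 and 60.5% ± 0.785 and 44.0% ± 0.792 for H3K27me3. They lay closer for H3K9me3, at 46.5% ± 1.00 and 39.8% ± 0.216, and for H3K9me2, at 25.0% ± 2.45 and 19.2% ± 0.316, with 50 and 39 such genes starting outside. Even so, 166 expressed LMNB1 genes and 636 expressed H3K27me3 genes started inside the domain. Expressed protein-coding genes were also longer than silent ones, with a median span of 54.2 against 20.4 kb in LMNB1 and 27.1 against 13.8 kb in H3K27me3, and CPM rises with transcript length, whose part in this was not tested.

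The 6 highest expressed protein-coding genes of LMNB1 domains, UQCRFS1 among them, stood above 100 CPM in each library. ELAC2, the nuclease that trims the 3′ ends of tRNA precursors, measured 186, 199.6, 152 and 162 CPM. IGF2R, the receptor that sorts lysosomal enzymes, stood at 167 ± 10.4 CPM with 100% of its body in the domain, DOCK1, an exchange factor for Rac, at 142 ± 9.72, GOLGA3, a golgin, at 137 ± 15.7 and LANCL1 at 128 ± 2.2. ELAC2, DOCK1, IGF2R, GOLGA3 and LANCL1 had LMNB1 as their only list, and ELAC2 and DOCK1 started outside the domain. The listed starts of ELAC2 and IGF2R lay in an H3K27me3 domain, which covered 30.4% and 4.16% of their bodies, and that of GOLGA3 in an H3K9me3 domain, which covered 15.1%. ELAC2, IGF2R, DOCK1 and LANCL1 overlap another gene, and without a stated strand of counting their reads cannot be told apart from those of the partner.

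H3K9me2 held the fewest expressed genes and the lowest levels at its top. After UQCRFS1 and ZWINT came QKI, an RNA-binding regulator of splicing, with 56.1, 54.0, 49.4 and 53.3 CPM, and ZNF160, a zinc finger gene, with 46.7, 41.4, 58.9 and 58.4 CPM. KIAA1217 followed at 29.9 ± 4.78 CPM and PUDP, a phosphatase of pseudouridine monophosphate, at 29.6 ± 2.05. All 6 were above 25 CPM in each library, and all 6 lay in LMNB1 domains as well. H3K9me2 covered 66.4% of the body of QKI, 59.2% of KIAA1217 and 71.0% of PUDP, whose listed start lay outside it. KIAA1217 and PUDP overlap another gene. ZNF160 and KIAA1217 were higher in both Ligation libraries than in both TruSeq libraries, and ZWINT, UQCRFS1, QKI and PUDP were lower. The part of the kit in this was not tested.

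H3K9me3 domains held some of the most abundant transcripts of the lists. RAN, the GTPase of nuclear transport, lay wholly inside an H3K9me3 domain and measured 855, 905.5, 769 and 741 CPM. PRDX6, a peroxiredoxin, stood at 309 ± 23.5 CPM, ZNF121 at 186 ± 6.16, ZNF24 at 174 ± 2.25, IRS1, the adaptor of the insulin receptor, at 166 ± 16.2 and TUG1 at 152 ± 9.17. H3K9me3 was the only list for each of these 6. RAN lay 2.07 kb from the nearer edge of its domain, and ZNF24 had 63.8% of its body covered and its listed start outside.

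H3K27me3 genes reached the highest levels of all lists. PGK1, a glycolytic kinase on the X chromosome, measured 1163, 1028, 1153 and 1110 CPM with 100% of its body inside. GNAS, the stimulatory G protein subunit and an imprinted locus, stood at 772 ± 16.3 CPM, RPS19, a ribosomal protein, at 712 ± 41.7, RAD21, a cohesin subunit, at 581 ± 22.5, FKBP4, a cochaperone of HSP90, at 415 ± 30.2 and SRSF6, a splicing factor, at 412 ± 41.5. GNAS had only 56.3% of its body in an H3K27me3 domain, and which part gave its counts was not tested. GNAS, RPS19, RAD21 and FKBP4 overlap another gene. Among genes with both H3K27me3 and LMNB1 and no other list, NDUFA9, a subunit of respiratory complex I, led at 90.2 ± 8.95 CPM. It was followed by DPYSL3 at 72.3 ± 5.87 and UFM1, a ubiquitin-like modifier, at 66.5 ± 4.03. LMNB1 covered 53.8% of the body of NDUFA9, whose listed start lay outside it, 58.8% of DPYSL3 and 100% of UFM1.

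**Figure D5:**
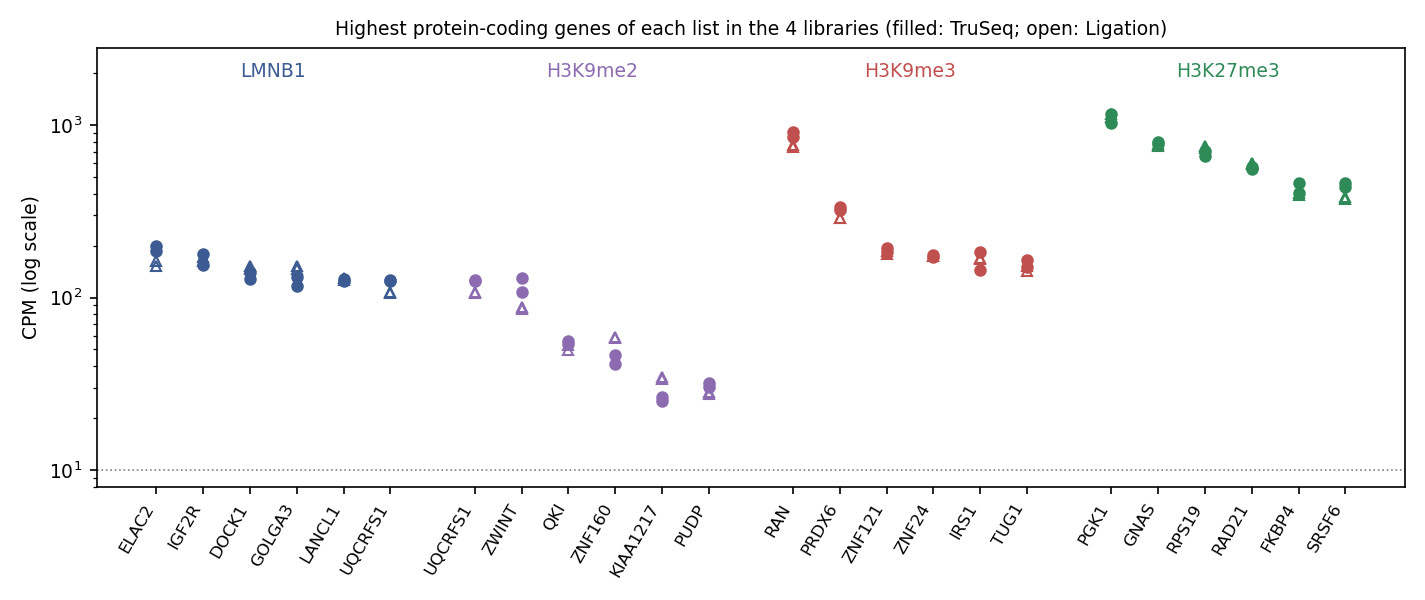
CPM on a log scale (y axis) of the 6 highest protein-coding genes in each list, 1 point per library (filled circles TruSeq, open triangles Ligation); the dotted line marks 10 CPM. Each point lies above 25 CPM, and PGK1 in H3K27me3 is the highest at 1113 CPM in the mean.

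Numbered zinc finger genes, most of which encode DNA-binding repressors, made up a large share of the genes expressed inside H3K9 methylation. Of 475 such protein-coding genes, 308 lay in a list and 179 of those were expressed (58.1%), against 151 of 167 unmarked ones (90.4%) and 60.4% of all protein-coding genes. In H3K9me3 domains 159 of 280 were expressed (56.8%), beside 141 of 1061 other genes (13.3%). In H3K9me2 domains they made up 71 of the 108 expressed protein-coding genes, with 37 of 1055 other genes expressed (3.51%). Of the 178 in H3K9me2, 155 sit on chromosome 19, where 72 of 210 H3K9me2 genes were expressed, against 36 of 1023 on the other chromosomes. Genes of chromosome 19 other than these were expressed in 6 of 55 for H3K9me2 and 6 of 43 for H3K9me3.

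The H3K9me3 domain with the most expressed protein-coding genes shows how mixed such a cluster can be. It spans 1.545 Mb of chromosome 19, chr19:52235001-53780000 on GRCh38, and holds 35 protein-coding genes wholly inside. Of its 28 numbered zinc finger genes, 17 were expressed, from ZNF761 at 2.59 CPM to ZNF83 at 60.7, with a median of 19.4, while 10 were silent and ZNF665 was low. ZNF415, ZNF528, ZNF578 and ZNF677 had no count in any library, though they lie in the same domain as ZNF160 and ZNF480 (20.7 CPM). Of the 7 other names, 0 were expressed: the vomeronasal receptor genes VN1R2 and VN1R4, the retroviral envelope genes ERVV-1 and ERVV-2 and the homeobox gene DPRX had no count, and a pair of zinc finger read-through genes had at most 2 counts in all. LMNB1 also held 28 of the 35 genes, and 10 of those 28 were expressed. The genes with H3K9me3 as their only list, ZNF83, ZNF28, ZNF320, ZNF468, ZNF600, ZNF888 and ZNF611, were all expressed. Genes of this domain thus differ in their other lists. Zinc finger genes share sequence, and how reads shared by copies were counted is not stated, so their counts are uncertain.

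Several families of tissue-restricted genes were nearly all silent inside domains. Of 329 olfactory receptor genes in a list, 0 were expressed and 327 were silent, and the highest, OR7D2, reached 0.38 CPM. All 93 keratin-associated protein genes lay in a list, with 0 expressed and 91 silent. Clustered protocadherins are adhesion genes, and those of the alpha and gamma clusters share 3′ exons. Of 36 such protocadherin genes of all clusters in a list, 0 were expressed and 32 were silent, the highest being PCDHGB2 at 0.33 CPM. Outside the lists some members were expressed: 7 of 51 olfactory receptor genes, led by OR51B5 at 179.9 ± 8.43 CPM and OR51B4 at 37.9 ± 3.4, and 1 of 17 protocadherin genes, PCDHGA10 at 3.92 ± 0.25. OR51B5 and the protocadherin genes named here, PCDHGB2 and PCDHGA10, overlap other genes. Silent outside the lists were 40 of the 51 olfactory receptor genes and 8 of the 17 protocadherin genes. Beside these counts stands the background of 60.4% expressed and 27.4% silent over all protein-coding genes. Over the protein-coding genes in any list it is 24.4% expressed and 59.9% silent.

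Cancer-testis antigen genes were nearly all silent inside domains and mostly silent outside them, and developmental genes were mixed. Among 67 cancer-testis antigen genes in a list 63 were silent, and MAGEA3 was the only one expressed, at 10.5, 10.7, 8.85 and 8.63 CPM. Its near-identical relatives make the count uncertain. Among 23 unmarked ones 19 were silent and 2 were expressed, with MAGEB2 highest at 202 ± 19.9 CPM. Of 84 developmental transcription factor genes in a list 44 were silent and 20 were expressed (23.8%), beside 24.4% of all protein-coding genes in a list, led by FOXC1 at 48.0 ± 2.83 CPM in H3K27me3 and TBX18 at 15.9 ± 2.02 in LMNB1 with H3K27me3, against 33 of 71 unmarked ones. HOX cluster genes lay in H3K27me3 in 10 of 39 cases and in no other list, and 1 of the 10 was silent and 6 were expressed, HOXB13 highest at 12.8 ± 1.59 CPM, as were 16 of 29 unmarked ones. Ion channel genes were expressed in 15 of 95 inside, with KCNH2 at 15.3 ± 2.34 CPM, and in 30 of 55 outside. Of 86 cytosolic ribosomal protein genes, used by every cell, 6 lay in a list, and the 2 expressed there were RPS19 and RPL38 (312 ± 38.1 CPM), both in H3K27me3, while 75 of 80 unmarked ones were expressed.

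The Scramble libraries, with totals of 59209169 and 55007171 counts in tables of their own, expressed most of the same genes. On the 24928 positioned names shared by the tables, 271 of 294 expressed LMNB1 genes, 109 of 111 H3K9me2 genes, 315 of 337 H3K9me3 genes and 871 of 943 H3K27me3 genes were also at 1 CPM or more in both Scramble libraries. The same held for 95.2% of all expressed positioned genes with a shared name (11328 of 11895) and for 95.5% of the unmarked ones. Scramble added genes, with 311, 139, 366 and 1037 expressed in the same order of lists, and 12161 over all shared names. These tables differ in depth, RNA extraction and processing, and the levels were not tested against each other. Of the 7599 genes in any list with a shared name, 98 were silent in siNTC5 and expressed in both Scramble libraries. So were 344 of 17329 unmarked genes, and 442 of all 24928, so such gaps were not particular to the lists. TAP1, a peptide transporter of antigen presentation in an H3K27me3 domain, had no count in siNTC5 and stood at 57 and 57.9 CPM in Scramble, and KRT20, an intestinal keratin in H3K9me3, had no count in siNTC5 and stood at 1.98 and 1.75 CPM. The cause of these gaps was not tested, and for these 98 names a silent call in siNTC5 cannot be read as absence of the transcript.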

How the data were processed

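Gene counts of polyadenylated RNA from 4 siNTC5 libraries were taken as the authors deposited them, as whole-number counts per gene made with STAR 2.7.1a and featureCounts of Subread 2.0.6 on hg38, per the submitters' processing notes. The annotation and the counted strand are not given in the sources used here. Domain lists came from ChIP-seq of HCT116 cells with antibodies to lamin B1, H3K9me2, H3K9me3 and H3K27me3. The deposited score of each domain is the authors' own and was used only to rank domains within a list. Per the submitters' processing notes those reads passed through bcl2fastq 2.20, fastp 0.23.2, Bowtie2 2.5.1 and deepTools 3.1.3 on hg38. The domain caller, the unit of the score, the use of input and any pooling are not given in the sources used here, and the read depth of the lists is unknown.

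CPM values are the counts divided by the total count of the library, on one common scale. Gene names were placed on the RefSeq annotation of GRCh38.p14, 26953 by symbol and 619 by synonym, and the share of each gene body in a list was computed. Promoters of 300 bases (250 before and 50 after a start) were listed by RefSeq for 18719 of the placed genes (67.9%) and for 80.1% of the protein-coding ones. The outermost start listed was used, which lies at the end of the annotated body for 13342 of 15352 protein-coding genes and more than 1 kb inside it for 1260. The CpG ratio is the number of CpG times the length, divided by the number of C times the number of G, with 0.6 or more called CpG-rich. Shares are the mean ± SD over libraries, differences were taken within libraries and tested by an exact sign-flip permutation test, and Wilson 95% intervals cover counting error only. Libraries correlated pairwise at 0.996 to 0.999 (Pearson's r over genes of log2(CPM + 1); genes are not independent replicates).

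Named genes were, by mean CPM, the 6 highest expressed protein-coding genes of each list, the 3 highest of each combination of lists with at least 50 protein-coding genes, the nearest to 50% cover on either side, and the 2 highest of each gene family inside and outside the lists. Of these, the ones the comparisons turn on are described, and the genes of the example domain and those silent only in siNTC5 were named after their values were seen. The classes, lists and comparisons were chosen with earlier results of these data known. Levels per kilobase of coding length were planned and not run, since no lengths were at hand. Alternatives were other library scalings (TMM of edgeR 4.0.16, size factors of DESeq2 1.42.0, in R 4.3.3), single kits, left-out libraries, other limits and other gene sets. Steps were tested on simulated data. Other computing used Python 3.11.15 with scipy 1.17.1, numpy 2.4.6 and pandas 2.3.3, and plots used matplotlib 3.10.9. Scramble counts come from tables of the authors with STAR 2.7.1a, featureCounts and DESeq2 named on hg19 and hg38, per the submitters' processing notes.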

Additional observations from a re-analysis of the deposited data

Results flagged for a closer look

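Among 105 groups of 4 libraries tested for a value far from the others, 2 stood out, and chance gives about 1 in 20. The expressed share of H3K9me2 protein-coding genes was 10.1% in replicate 3, against 9.49% to 9.57% in the others. TIMP3, an inhibitor of metalloproteinases in an H3K9me2 and H3K27me3 domain, measured 8.10 CPM in replicate 3, against 6.34 to 6.60 CPM in the others, and it overlaps another gene. Neither value changed the order of the classes.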

How the results depend on the processing

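Of 390 recomputed shares and counts, 1 reversed and 16 moved (counts by over 1.5 times, CpG-rich shares beyond their 95% interval). In the other 373, differences kept their sign, some at another size, and counts and CpG-rich shares stayed within those limits. The reversed one is the difference between LMNB1 genes with H3K27me3 and those with H3K9me2 and H3K9me3, which went from 5.77 to -10.2 points when genes with no count were left out, and over the other alternatives ranged from 1.77 (90% of the body in a list), 2.47 (without overlapping genes) and 2.83 (upper part of the scores) up to 13.9 (any overlap). Leaving out genes with no count also took the difference in silent share from unmarked genes from 55.6 to 27.2 points for LMNB1, 61.8 to 35.5 for H3K9me2, 52.0 to 19.1 for H3K9me3 and 40.3 to 22.1 for H3K27me3. The count of expressed H3K27me3 genes (995) was 1661 with any overlap of body and list, 561 in the upper part of the deposited scores and 645 without overlapping genes. The LMNB1 count (306) was 198 in the upper part of the scores. These settings change the number of genes in the class. Without chromosome 19 the H3K9me2 count (113) was 38 and the H3K9me3 count (349) was 228, and without numbered zinc finger genes they were 42 and 190, both settings chosen after seeing the data. The CpG-rich share of expressed genes was 84.8% (LMNB1), 86.6% (H3K9me2), 84.1% (H3K9me3) and 82.0% (H3K27me3) at a ratio limit of 0.5, and 59.3%, 59.8%, 58.0% and 60.1% at 0.75. Each difference in expressed share between a list and unmarked genes stayed below 0 under the 22 alternatives run, from -59.0 to -39.0 points for LMNB1, -65.2 to -47.0 for H3K9me2, -51.4 to -24.0 for H3K9me3 and -49.4 to -34.2 for H3K27me3. Leaving out single libraries gave 306 to 315 expressed LMNB1, 113 to 118 H3K9me2, 352 to 356 H3K9me3 and 1002 to 1026 H3K27me3 genes. The exact sign-flip permutation p cannot pass 0.05 with 4 libraries and says nothing of stability. No paired analysis was possible because no groups of samples were compared, and differences between classes were already taken within each library. CPM per kilobase of coding length was not run.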

Other observations

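Some expressed genes differed widely between siNTC5 and the Scramble tables, which come from other RNA extractions and other processing. ZNF121, a zinc finger gene in H3K9me3, measured 186 ± 6.16 CPM in siNTC5 (SD, n = 4) and 18.8 and 24.0 CPM in Scramble. ZWINT measured 103 ± 20.6 CPM in siNTC5 and 30.4 and 31.8 in Scramble. MAGEA3 went the other way, with 9.67 ± 1.08 CPM in siNTC5 and 88.6 and 94.9 in Scramble, as did HLA-B, a class I antigen in H3K9me3 and H3K27me3, with 62.9 ± 17.4 CPM against 338 and 313. They were picked for this gap, and the differences were not tested.

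By kit, 312 LMNB1 genes were expressed in both TruSeq libraries and 325 in both Ligation libraries, with 306 in all 4. The same counts by kit were 116 and 126 for H3K9me2, 358 and 366 for H3K9me3 and 1018 and 1078 for H3K27me3. Unmarked genes gave 11108 and 11202, and all positioned genes 12531 and 12693, so the Ligation count was higher in each class. A count in all 4 libraries cannot exceed that of either kit.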
